A study of Mus musculus with 14 samples.

Results

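Heat shock proteins and chaperonins are the proteins that fold, refold and sort other proteins. Their genes were examined in RNA-seq of the mouse whole spinal cord (WSC). Members were chosen by gene symbol alone: the Hsp genes, the Dnaja, Dnajb and Dnajc genes, the subunits of the CCT chaperonin, Bag1 to Bag5, and Stip1. The rule found 84 of the 19215 genes in the tables, together with 58 of the 13189 cassette exons, which lie in 34 of these genes. Cassette exons are exons inside a gene that splicing keeps in some transcripts and leaves out of others.

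The data were 2 poly(A)-selected libraries, 1 of male and 1 of female mouse spinal cord, in the B6/SJL background at 12 weeks. Both carried Tg(SOD1)2Gur/J, a transgene with human wild-type SOD1 under its own promoter, so no spinal cord without the transgene was compared. With 1 library per sex, sex cannot be told apart from any other difference between the libraries, and no test between sexes was possible. The number of animals behind a library is not given in the sources used here. Errors are SDs over the 2 libraries (n = 2).

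As background, HSP70 proteins bind unfolded stretches of other proteins in a cycle that J-domain (DNAJ) proteins start and nucleotide exchange factors such as BAG proteins and HSP110 end. HSP90 proteins act later, on near-native clients such as kinases and receptors, and Stip1 passes clients from HSP70 to HSP90. CCT and HSP60 enclose a folding protein in a chamber, CCT in the cytosol for actin and tubulin and HSP60 in mitochondria, while small HSPs hold unfolded proteins without ATP. In neurons, with their long axons, these proteins are best known for work on synaptic vesicles and on proteins that aggregate.

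The libraries held 72006019 (male) and 65625173 (female) reads on genes, of which the members took 1.25% and 1.27%. The tissue label was checked against marker genes fixed in lists. Oligodendrocyte markers had a mean RPKM (reads scaled to exon length and to the library's total) from 155 to 4730, astrocyte markers from 26.0 to 500.4 and neuron markers from 53.6 to 2057, while Schwann cell markers stayed at or below 0.229 and skeletal muscle markers at or below 1.24, with Myh4 at 0. The summed markers of some cell types differed between the libraries. The summed RPKM of 5 endothelial markers was 20.6 in the male and 14.7 in the female library, and that of 5 motoneuron markers was 88.3 and 111. Their part in the differences described here was not tested, and in bulk tissue fewer cells of a type and less RNA per cell cannot be told apart.

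Chaperone genes were widely expressed. At a mean RPKM of at least 1, called expressed here and the level at which the study's methods chose background genes, 72 of the 84 members (85.7%) were found, against 62.1% of all genes. The median member had 18.6 RPKM and the median gene 3.46, or 30.4 and 10.3 among expressed genes. Of the 12 members below 1 RPKM, 4 had 0 reads in both libraries: Dnajb7, Dnajb8, Dnajc5b and Dnajc5g. A count of 0 allows up to 3 reads per library. The other 8 were Hspa1b, Hspb2, Hspb3, Hspb7, Cct6b, Dnajb3, Dnajb13 and Dnajc22.

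Levels were uneven, and the 5 highest members held 36.1% ± 2.34 of the summed member RPKM. These were Hsp90ab1, Hspa8, Hsp90b1, Stip1 and Hspa5. The last place was not settled, since Hspa5 (146 RPKM) lay close to Hsp90aa1 (144). With the longest transcript as the length, Cct6a (171) took the place of Hspa5 (143). In all, 13 members had over 100 RPKM, a level reached by 552 genes in the tables.

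**Figure D1:**
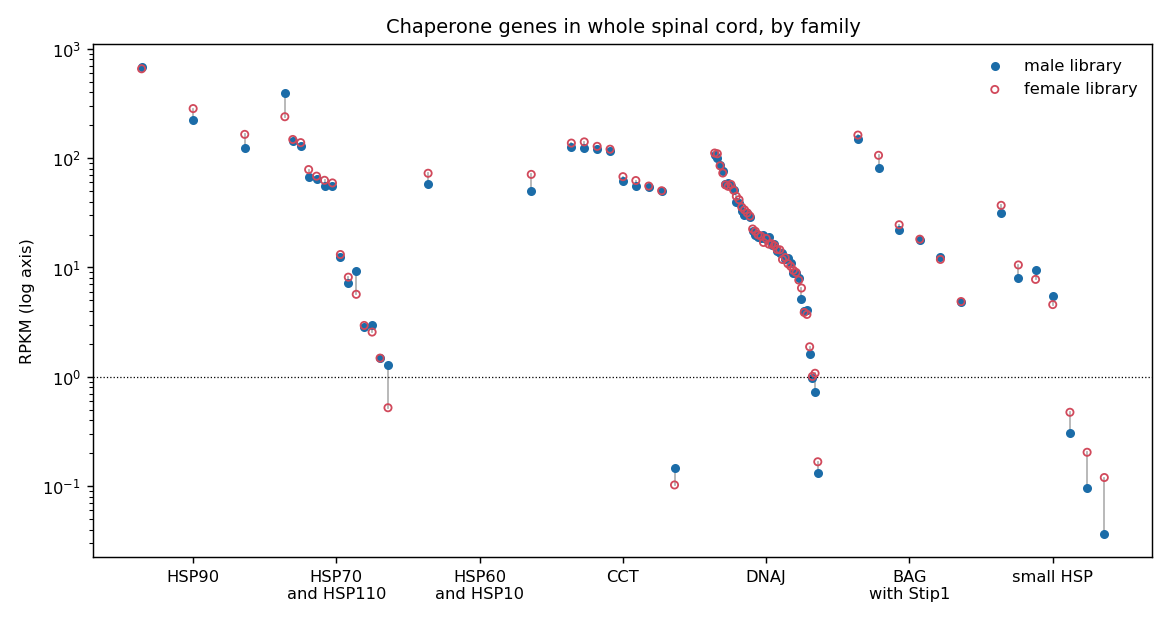
RPKM (log axis) of each member in the male library (filled circles) and the female library (open circles), joined by a line and sorted within 7 families. The dotted line marks 1 RPKM, and the 4 members at 0 are not drawn. Levels run from 667 RPKM for Hsp90ab1 down to 0.0780 for Hspb3.

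All 3 HSP90 genes chosen by symbol had over 100 RPKM. Hsp90ab1, the constitutive cytosolic form, had 678 RPKM in the male and 657 in the female library (mean 667 ± 14.6), rank 34 of all genes. Hsp90b1, the form of the endoplasmic reticulum (ER), had 224 and 284 (254 ± 42.4). Hsp90aa1, the stress-inducible cytosolic form, had 123 and 165 (144 ± 29.4). The RPKM of the constitutive form was 5.49 times that of the inducible form in the male and 3.98 times in the female library. This ratio is uncertain, since 67.3% of the 74-nt windows along the Hsp90aa1 transcript and 2.04% along that of Hsp90ab1 had an exact copy elsewhere in the genome, and the authors did not keep reads from such windows. Hsp90aa1 and Hsp90b1 were lower in the male library, and Hsp90ab1 was nearly level.

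Among the 14 HSP70 and HSP110 genes, Hspa8, the constitutive cytosolic form that uncoats clathrin vesicles, had 393 RPKM in the male and 239 in the female library (316 ± 108). Hspa5, the ER form also called BiP, had 143 and 148 (146 ± 3.47). Hspa9, the mitochondrial form, had 129 and 139 (134 ± 6.82). Hspa5 and Hspa9 were close between the libraries, while Hspa8 differed the most of the members over 100 RPKM. The HSP110 exchange factors had 73.1 ± 7.86 (Hsph1), 66.6 ± 2.57 (Hspa4l) and 59.3 ± 4.83 RPKM (Hspa4). Their order depended on the length used, since on transcript length the values were 126, 36.01 and 79.0.

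The stress-inducible HSP70 pair was almost silent by comparison. Hspa1a had 1.47 RPKM in the male and 1.48 in the female library, and the RPKM of Hspa8 was 266 and 162 times as high. Hspa1b, with 258 and 96 reads, had 1.28 and 0.521 RPKM. The pair is nearly identical in sequence: 55.2% of the windows of Hspa1a and 56.4% of those of Hspa1b had a copy elsewhere, as had 69.1% of those of Hspa8. The levels of these 3 genes and the ratios between them are therefore uncertain.

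The mitochondrial chaperonin is made of Hspd1 (HSP60) and its lid Hspe1 (HSP10). Hspd1 had 58.3 RPKM in the male and 72.7 in the female library (65.5 ± 10.2). Hspe1 had 50.2 and 71.0 (60.6 ± 14.7). The ratio of Hspd1 to Hspe1 was 1.16 in the male and 1.02 in the female library. Both genes were lower in the male library.

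The CCT ring holds its subunits in equal number. In deposited RPKM, Cct6a (132 ± 7.21), Cct8 (132 ± 12.9), Cct5 (125 ± 4.87) and Cct2 (118 ± 3.74) lay above Tcp1 (64.6 ± 4.46), Cct3 (59.2 ± 4.54), Cct4 (54.7 ± 1.17) and Cct7 (50.4 ± 0.0749). This order depended on the length that the reads were divided by. The deposited exon length was 4814 nt for Tcp1 and 5723 nt for Cct7, while their longest protein-coding transcripts have 2446 and 2452 nt. On transcript length, a scale added once the values were known, Tcp1 reached 127 ± 8.78 and Cct7 118 ± 0.175 (reads per kilobase of transcript, scaled to the library total), beside 129 ± 4.09 for Cct2 and 118 ± 4.58 for Cct5. Cct3 (81.3 ± 6.24) and Cct4 (59.1 ± 1.26) were the lowest of the 8 on that scale, and Cct6a (171 ± 9.30) the highest. Cct4 thus stayed low and Cct6a high on both scales, and the places of Tcp1 and Cct7 were not settled. Cct6b, a paralog of Cct6a known from testis, had 19 and 12 reads (0.125 ± 0.0321 RPKM).

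**Figure D2:**
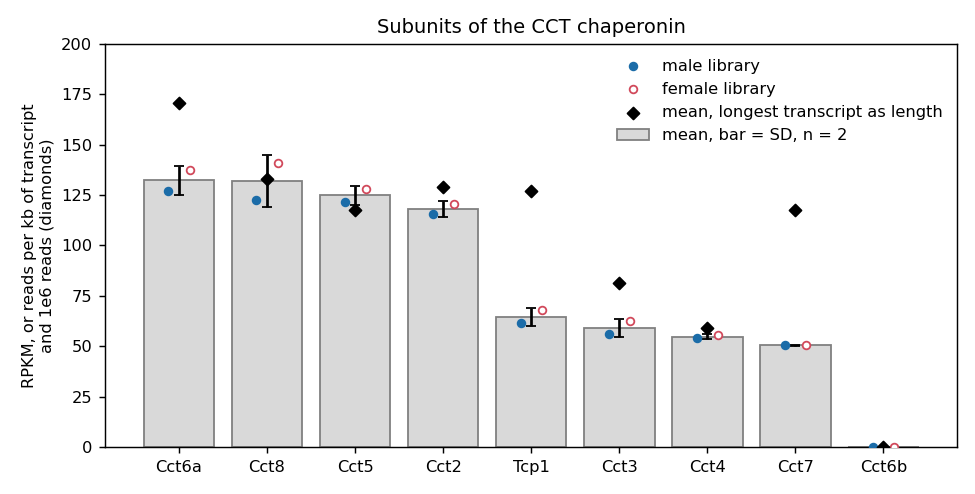
Levels of the 9 CCT genes. Bars give the mean RPKM over the male (filled circles) and female (open circles) libraries and whiskers the SD (n = 2), and diamonds give the mean with the longest transcript as the length. Tcp1 and Cct7 move from 64.6 and 50.4 RPKM to 127 and 118, while Cct6b stays near 0.

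The 43 DNAJ genes were the largest family, with levels from 0 to 109 RPKM and a median of 16.3. Dnajc7, which carries TPR repeats and binds both HSP70 and HSP90, had 107 RPKM in the male and 111 in the female library (109 ± 3.12). Dnajc8, a protein associated with splicing complexes, had 99.5 and 110 (105 ± 7.27). Dnajc5, the cysteine string protein of synaptic vesicles, had 86.4 and 85.1 (85.8 ± 0.887). The spread between the libraries was small for these genes. Their places in the family depended on the length used, as for HSP110. On transcript length the values were 111 for Dnajc7, 108 for Dnajc8 and 47.9 for Dnajc5. Dnajb2 moved from 50.8 RPKM to 109 on that scale. All 4 Dnaja members were expressed, as were 8 of 12 Dnajb and 24 of 27 Dnajc members.

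Among the nucleotide exchange factors and their partners, Stip1, also called HOP, had 151 RPKM in the male and 163 in the female library (157 ± 8.03). Bag1 had 80.5 and 106 (93.4 ± 18.1), and Bag3, which works with Hspb8 in autophagy of damaged proteins, had 21.9 and 24.6 (23.2 ± 1.93). The lowest was Bag2, an inhibitor of the ubiquitin ligase CHIP, with 4.81 and 4.88 (4.84 ± 0.0514). All 6 members of the group were expressed.

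The small HSPs had the lowest median RPKM of the 7 families, with 4 of 7 members expressed. Hspb8 had 31.2 RPKM in the male and 37.0 in the female library (34.1 ± 4.11), Hspb6 had 7.93 and 10.5 (9.24 ± 1.85), and Hspb1 had 9.41 and 7.77 (8.59 ± 1.15). The muscle-associated Hspb2, Hspb3 and Hspb7 stayed under 1 RPKM, and Hspb3 had 2 and 6 reads. For Hspb1, 57.0% of the transcript windows had a copy elsewhere, and reads from such windows were not kept. The related alpha-crystallin Cryab, which is no member, had 220 and 284 RPKM (252 ± 45.3).

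Next the libraries were compared with each other, as a question of how far the members vary between them. Past 1.5-fold, 2 of the 72 expressed members (2.78%) were higher in the male library, against 2.35% of all expressed genes, and 0 were higher in the female library, against 1.57%. The share of members past that level was thus near that of all genes. No p-value goes with these counts.

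Hspa8 was 1.64-fold higher in the male library (counting interval 1.62 to 1.66, exact 95%). Hspa2, an HSP70 best known from the testis, was 1.65-fold higher (1.53 to 1.79), with 9.38 against 5.68 RPKM. These intervals cover counting error only. With 1 library per sex they leave out the spread between animals and between libraries. The reads were paired-end per the study's methods and carry no molecular identifiers. Reads from 1 molecule are not independent, so the intervals can be too narrow even for counting error. The junction before the 210-nt exon of Hspa8, where 4 of 30 windows were repeated, was 1.57-fold higher in the male library (1.51 to 1.63). Without Hspa8, the summed RPKM of the family was 0.938 times that of the female library, and with it 1.14 times. Hspa1b was 2.45-fold higher (1.93 to 3.13) but lay below 1 RPKM.

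Among members of at least 1 RPKM, the largest differences in the other direction were those of Hspe1 (1.42-fold higher in the female library), Hsp90aa1 (1.34-fold) and Hspb6 (1.33-fold). Bag1 (1.32-fold), Hsp90b1 (1.27-fold), Dnajb6 (1.26-fold) and Hspd1 (1.25-fold) came next. At that level the largest male-higher value after Hspa2 and Hspa8 was that of Hspb1, 1.21-fold. Of the members below 1 RPKM, Hspb7 was 2.14-fold higher in the female library (counting interval 1.198 to 3.93) on 19 and 37 reads, and Dnajb13 1.48-fold (1.05 to 2.10) on 60 and 81 reads. The intervals of Hspb3 (3.29-fold, 0.589 to 33.3), Hspb2 (1.55-fold, 0.798 to 3.07) and Cct6b (1.44-fold higher in the male library, 0.665 to 3.26) included 1. Repeated windows made up 75.1% of Dnajb6, 67.3% of Hsp90aa1, 43.8% of Hspd1 and 28.2% of Hspe1.

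Beyond single genes, the members leaned slightly toward the female library. Of the 72, 51 (70.8%) had the higher value there, against 48.7% of all expressed genes, and the median log2 ratio (male over female) was -0.06 against 0.01. Without the members with over 20% repeated windows, 45 of 64 did (70.3%), with a median of -0.05. The lean was small: 62 members (86.1%) were within 1.2-fold, against 77.4% of all genes. Members share the same 2 libraries, so this count is a description. Some cell type markers leaned the same way, with a median log2 ratio of -0.16 over 5 oligodendrocyte markers (4 higher in the female library) and -0.11 over 4 neuron markers (3 higher). Others did not, with 0.06 over 5 astrocyte markers (2 higher in the female library) and 0.51 over 5 endothelial markers (0 higher). The part of cell types in the lean was not tested. By family, the higher value was in the female library for 7 of 8 CCT genes, 10 of 13 HSP70 and HSP110 genes and 23 of 36 DNAJ genes. All 4 Dnaja genes were among them, while the Dnajc genes split 12 to 12.

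**Figure D3:**
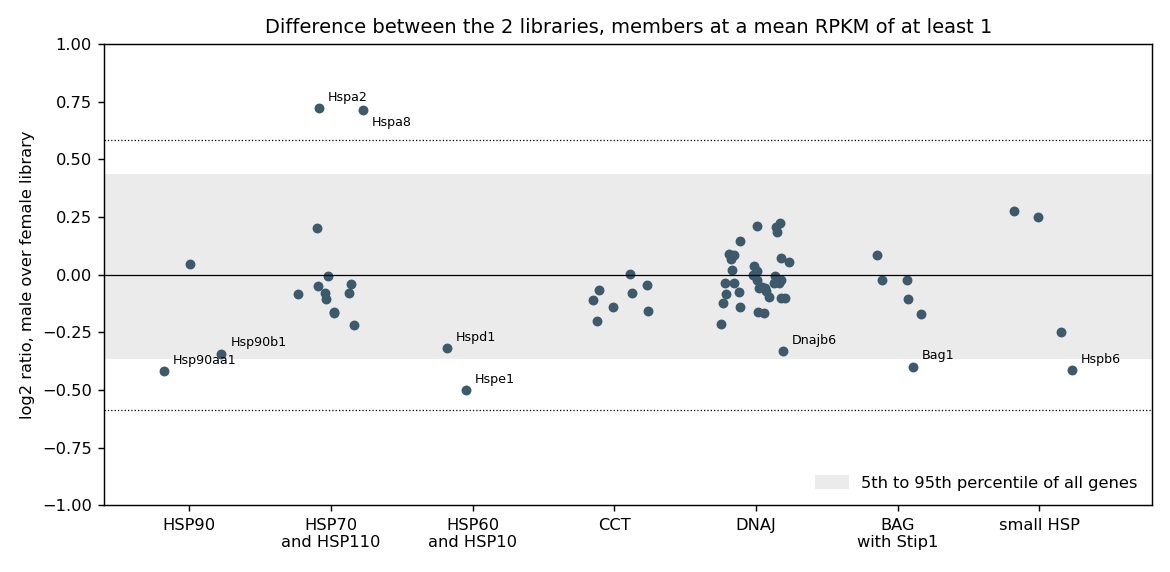
Log2 ratio of the male over the female library for the 72 members at a mean RPKM of at least 1, by family; horizontal scatter is only for display. Dotted lines mark 1.5-fold and the grey band the 5th to 95th percentile of all expressed genes (-0.36 to 0.43). Only Hspa2 and Hspa8 lie past the dotted lines.

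Other genes of the same pathways were taken from fixed lists. Of 58 listed regulators, cochaperones and other folding genes, 55 were in the tables and 53 were expressed. Past 1.5-fold were 0 of them in either direction. Of all expressed genes, 2.35% were past it with the male library higher and 1.57% with the female library higher. At those shares few of 53 genes would be past it, so the 0 does not set these genes apart. Among the regulators, Hsf1, the master factor of the heat shock response, had 13.1 RPKM in the male and 12.0 in the female library, and Atf4, a factor of the integrated stress response, had 66.3 and 59.2. Of the HSP90 cochaperones, Ahsa1, an activator of its ATPase, had 106 in both. St13, also called HIP, had 110 and 120 RPKM. Immediate early genes, which respond to handling and activity, had a summed RPKM of 52.5 in the male and 50.8 in the female library. The sum hides a lean, since only 1 of the 6 expressed was higher in the female library. That gene was Jun, the highest of the list, and the median log2 ratio (male over female) was 0.14.

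Some members carry short sequence elements near their starts. The promoters in RefSeq (GRCm38.p6, 250 bases before to 50 after each start) covered 68 of the 84 members. They were searched on both strands for 3 alternating units of the heat shock element, GAANNTTCNNGAA or TTCNNGAANNTTC, which is the site of HSF1, and for the ER stress element, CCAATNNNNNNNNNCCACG or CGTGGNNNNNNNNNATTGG. The first was found in 4 members (5.88%), against 0.662% of all genes, and the second in 3 (4.41%), against 0.137%. The matches are shown because both elements are known sites of stress factors, with the motif in capitals:
Hspe1, 89 to 72 bases before its start, chr1:55088049-55088086 (+): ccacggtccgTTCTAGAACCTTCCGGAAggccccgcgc
Dnajb6, 46 to 34 or 127 to 115 bases before its 2 annotated starts, chr5:29735842-29735874 (+): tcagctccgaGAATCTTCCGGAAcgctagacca
Hsph1, 15 to 27 or 36 to 48 bases after its 2 annotated starts, chr5:149636287-149636310 (-): atgctgcagaTTCTGGAAAGTTCt
Hspa5, 65 to 47 bases before its start, chr2:34772015-34772053 (+): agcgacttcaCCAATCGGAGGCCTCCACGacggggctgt
Dnajc3, 105 to 87 bases before its start, chr14:118937817-118937855 (+): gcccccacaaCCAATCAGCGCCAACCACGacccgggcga

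The Hspe1 stretch is the same DNA as that found for Hspd1, read from the opposite strand, since the 2 genes start back to back, and it holds 2 overlapping matches. For Hsp90b1 the ER stress element occurred 2 times between 212 and 89 bases before its start. The 3 genes with that element code for proteins of the ER (Hspa5, Hsp90b1 and Dnajc3). A match is a description of letters and not a bound site. The genes with the heat shock element were all higher in the female library, as were 51 of the 72 expressed members (70.8%). Log2 ratios (male over female) were -0.50 for Hspe1, -0.33 for Dnajb6, -0.32 for Hspd1 and -0.22 for Hsph1. Hspe1 and Hspd1 share their stretch and are not separate cases, and a link between element and ratio was not tested. The genes with the ER element had -0.34 (Hsp90b1), -0.05 (Hspa5) and -0.03 (Dnajc3). Of these, Hspe1, Dnajb6 and Hspd1 were also among the genes with over 20% repeated windows.

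Splicing of the members was then measured as inclusion. The reads on the junctions before and after an exon were averaged, and this average was divided by its sum with the reads that skip the exon. At least 10 junction reads in each library were found for 51 of the 58 exons, in 29 genes. Since several entries are longer and shorter forms of the same exon, these stand for 45 separate exons. Inclusion was above 90% for 39 of the 51 (76.5%), against 54.2% of all covered exons, and below 10% for 7. The remaining 5 (9.80%) had a mean between 10% and 90%, against 27.4% of all covered exons. In 22 of the 51 entries no read skipped the exon in either library. These include longer and shorter forms of the same exon, and the same count over all covered exons was not made.

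Differences were tested on the authors' inclusion and skipping counts. Their inclusion count adds reads on the exon body to both junctions without halving, unlike the rates above. At FDR 0.1 (two-sided Fisher's exact test, Benjamini-Hochberg over 9396 covered exons), 1 of the 51 (1.96%) differed between the libraries, against 4.26% of all covered exons. The test compares these 2 libraries and not the sexes, and its p and FDR cover counting error only. By unadjusted p under 0.05 the count was 2 of the 51, against 1157 of the 9396 covered exons. The called exon was the 132-nt exon of Hsph1 at chr5:150426040-150426171 (mm9, minus strand), which is coding throughout and adds 44 codons. As background, the form of HSP110 that lacks it is known as the beta form, made after heat shock. The exon, with 10 bases of each flanking intron in lower case, reads:
Hsph1 132-nt exon: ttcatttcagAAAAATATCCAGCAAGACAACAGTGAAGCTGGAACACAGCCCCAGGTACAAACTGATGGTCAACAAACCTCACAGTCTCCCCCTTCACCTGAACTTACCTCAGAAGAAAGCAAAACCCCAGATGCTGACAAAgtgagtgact

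Inclusion was 98.3% for the male (97.3 to 98.9, Wilson 95% interval) and 95.5% for the female library (94.0 to 96.5), with an FDR of 0.0137 by Fisher's exact test and 0.0158 with junction reads only. The skipping junction had 17 and 49 reads, which is 3.16-fold more in the female library per read on genes, while the inclusion junctions had 1033 and 941 reads in the male and 1055 and 1006 in the female library. The difference was 2.85 points. The exon was included in nearly all transcripts of both libraries.

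Of the 5 exons of intermediate inclusion, none was called. The 117-nt exon of Dnaja3, a mitochondrial J protein also called TID1, holds the end of an annotated coding sequence, with 101 coding bases. It lies at chr16:4705844-4705960 (mm9, plus strand) and is printed because that coding sequence stops inside it:
Dnaja3 117-nt exon: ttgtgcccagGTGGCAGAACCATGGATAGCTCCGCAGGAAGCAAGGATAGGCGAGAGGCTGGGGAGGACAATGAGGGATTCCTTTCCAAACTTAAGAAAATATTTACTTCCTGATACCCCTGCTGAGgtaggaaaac
Its inclusion was 32.2% in the male and 20.8% in the female library (26.5 ± 8.01), with overlapping intervals of 24.3 to 41.2 and 13.9 to 30.0. The FDR by Fisher's exact test was 0.165, and 0.309 with junction reads only. The 110-nt coding exon of Bag2 at chr1:33805062-33805171 (mm9, minus strand), not a multiple of 3, was included at 60.0% and 76.0%, on only 24 and 22 junction reads:
Bag2 110-nt exon: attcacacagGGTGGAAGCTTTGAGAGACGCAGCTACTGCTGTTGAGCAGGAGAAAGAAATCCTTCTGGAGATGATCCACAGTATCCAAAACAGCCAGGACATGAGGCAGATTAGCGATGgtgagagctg
For Hsp90aa1, a 15-nt noncoding exon at chr12:111933976-111933990 (mm9, minus strand) had rates of 22.7% and 29.96%:
Hsp90aa1 15-nt exon: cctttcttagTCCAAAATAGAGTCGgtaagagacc

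The reads behind the Hsp90aa1 rate were lopsided, with 0 and 3 reads on the junction before the exon and 41 and 74 on the junction after it, so the rate rests on the second junction. The 53-nt noncoding exon of Dnajc5 was included at 16.1% and 15.5%, with little difference. The 163-nt form of a Dnajc4 exon had rates of 70.9% and 63.6%, but no read crossed its own first junction. Those rates came from the second junction, which it shares with a 114-nt form at 90.4% and 89.7%.

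**Figure D4:**
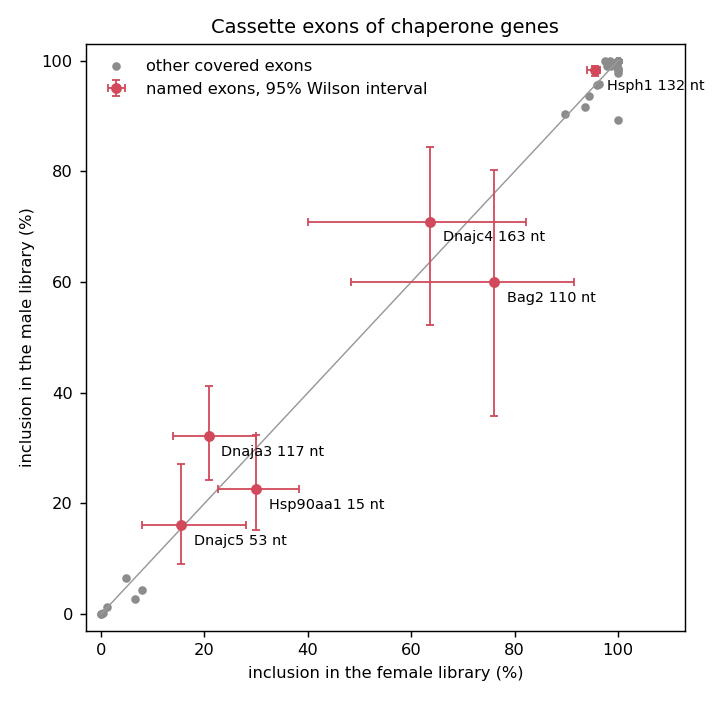
Inclusion (%) of the 51 covered cassette exons in the female library (x axis) and the male library (y axis), with the diagonal. The 6 named exons carry 95% Wilson intervals for counting error. The exons cluster at the 2 ends, and the 5 intermediate exons have wide intervals.

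At the low end, exons of Cct3 (54 nt) and Dnajc7 (42 nt) had 0 reads on their inclusion junctions, with 0 and 1 reads (Cct3) and 5 and 4 reads (Dnajc7) on the exon itself. With 326 and 332 skipping reads, 0 reads allow a share of up to 0.920% and 0.904% of junction reads for Cct3, and with 649 and 584 up to 0.462% and 0.514% for Dnajc7. The second exon of Dnajc5, of 75 nt, was included at 6.47% and 4.75%.

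Some junctions with repeated windows had few reads, and the relation over all 58 exons was not tested. For the 210-nt exon of Hspa8, the junction before it had 7121 and 4140 reads, while the junction after it, where 30 of 30 windows had a copy elsewhere, had 7 and 1. For the 178-nt exon of Dnaja1, a cytosolic J protein, the counts were 255 and 195 before, with 0 of 30 windows repeated, and 2 and 1 after, with 30 of 30 repeated. The exon of Dnajb6, a gene with a mean of 5.82 RPKM, had all windows of both junctions repeated and at most 1 read on either. The 176-nt exon of Hspd1 went the other way. Its first junction, with 9 of 16 windows repeated, had 396 and 413 reads. The second, with 7 of 30 repeated, had 258 and 240. In all, 4 of the 58 exons had a junction with every window repeated. Longer and shorter forms of an exon also differed in their junctions. The 169-nt form of a Cct7 exon had 0 reads on its second junction in both libraries, while the 165-nt form, which shares the first junction, had 788 and 756 there. The same held for the 112-nt form in Hspa4 (0 reads, against 636 and 591 for the 108-nt form) and the 90-nt form in Tcp1 (0 reads, against 121 and 143 for the 86-nt form).

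**Figure D5:**
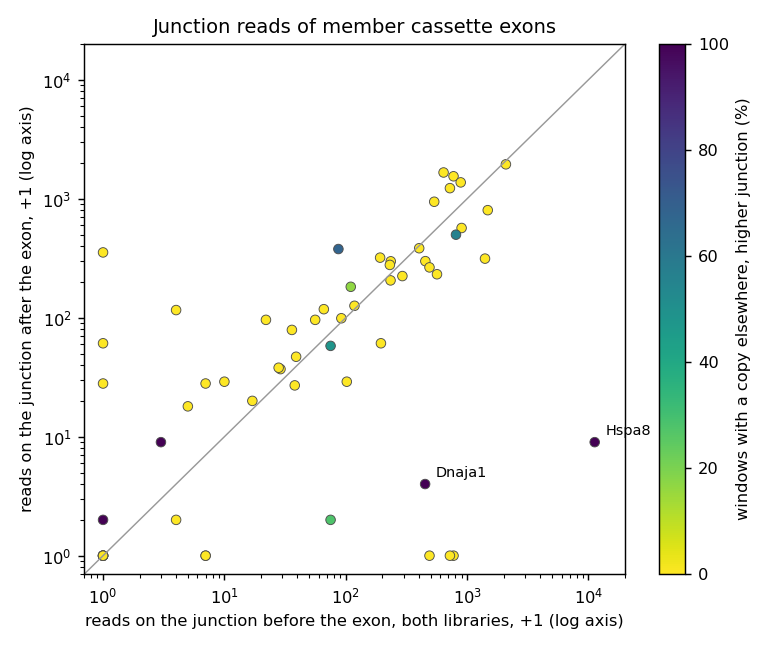
Reads on the junction before (x axis) and after (y axis) each of the 58 exons, summed over both libraries plus 1, on log axes with the diagonal. Color gives the share of 74-nt windows with a copy elsewhere at the junction with the higher share. Hspa8 and Dnaja1 lie far below the diagonal with a share of 100%.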

How the data were processed

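Per the study's methods, reads were cut to 74 nt and aligned by OLego against mm9 with its exon junctions, and the authors retained only unambiguous reads, so genes with near-identical copies are undercounted. Quantas and OLego versions are not given in the sources used here. The authors deposited whole-number read counts per gene, the RPKM made from them, and read counts on exon bodies and junctions. The inclusion rate column was not used, and the 12 CLIP samples were not analysed here.

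Genes were matched between the 2 tables on NCBI gene ID, because 25 symbols differ. Ratios used counts over the total on genes. Ratios carry Clopper-Pearson intervals and inclusion carries Wilson intervals. Exons needed 10 junction reads per library. Exact copies of 74-nt windows, taken every 10 nt, were sought in NCBIM37 (mm9). Exon positions were set from its GENCODE annotation and checked by splice sites. Tests and fold counts were tested on simulated data. Versions were Python 3.11.15, scipy 1.17.1, edgeR 4.0.16 and DESeq2 1.42.0, the last 2 used only for scaling factors.

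Members and lists were chosen with earlier results of these data known. Genes named in the text were the highest 3 and the lowest of each family, those past 1.5-fold or with the 3 largest ratios each way, those with an intermediate or called exon, those with 0 reads, and those with over 20% repeated windows. Other named members were added after their values were seen.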

Additional observations from a re-analysis of the deposited data

How the results depend on the processing

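No paired analysis was possible because the 2 RNA-seq libraries are 1 per sex and share no replicate number, and the CLIP groups give no test here. Under the alternatives tried, the counts of members at 1 RPKM and of covered, intermediate and called exons stayed within 1.5 times their values. The share of the 5 highest members was 37.7% in the male and 34.4% in the female library. With 2 libraries such values lie within the SD by construction. On transcript length, chosen after seeing the data, the share of the 5 highest on that scale was 37.0%. The members' median log2 ratio ran from -0.05 to -0.07. The tolerance set for it, the median absolute ratio of all genes (0.14), is larger than the ratio itself, so staying within it says little. Leaving out 1 library gave a median member RPKM of 18.9 to 19.0, and TPM in place of RPKM gave 55.7, another unit. The longest transcript in place of the deposited exon length, chosen after seeing the data, gave 20.7, with 71 members at 1 or more. Past 2-fold, 0 members were left, and without the RPKM filter (10 reads together) 5 were past 1.5-fold. TMM and DESeq2 scaling kept the count of 2 and moved the members' median log2 ratio to -0.07, with 52 of 72 higher in the female library. Counting exon body reads and not halving inclusion reads gave 7 intermediate exons in place of 5, raised all 5 named rates and took the 163-nt Dnajc4 form to 93.4%. Hsp90aa1 then had 64.4%, and 41.5% with junction reads not halved but without body reads, an alternative chosen after seeing the data. Depth limits the exons with few junction reads, such as that of Bag2, and with 1 library per sex the spread between animals is unknown.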
